A study of Mus musculus with 7 samples.

Results

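Formative and lineage-priming genes were followed in mouse embryonic stem (mES) cells treated with STM2457, a small-molecule inhibitor of the m6A methyltransferase METTL3. The group comprised 10 of the 22556 genes in the expression table, taken by symbol: *Fgf5*, *Otx2*, *Pou3f1*, *T*, *Eomes*, *Lefty1*, *Lefty2*, *Nodal*, *Gata6* and *Sox17*. RNA that stays bound to chromatin was sequenced (ChrRNA-seq), so that introns and nascent transcripts are well covered. All 7 libraries came from the C7H8 XX mES line, a Cast x 129S hybrid in which the endogenous *Xist* promoter of the Cast allele is replaced by a TetOn promoter, and the cells were grown with LIF on inactivated mouse fibroblast feeders. Cells received DMSO in 3 libraries, and in the others the inhibitor, at 10 µM in 2 libraries and at 20 µM and 30 µM in 1 each. Treatment lasted 6 h and was kept on for a further 24 h with doxycycline at 1.0 µg/mL, so the controls also expressed *Xist*. Only this line was used, and cells cultured without doxycycline are not analysed here.

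Naive mES cells pass through a formative state, in which *Otx2*, *Pou3f1* and *Fgf5* are switched on, before they can respond to the signals that specify germ layers. Nodal, a secreted ligand of the TGFβ family, signals through activin receptors and SMAD2/SMAD3 with the cofactor FOXH1, and the *Lefty* genes are both targets and secreted antagonists of the pathway. *T* and *Eomes* encode T-box factors of the primitive streak, and *Gata6* and *Sox17* encode regulators of primitive and definitive endoderm.

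Levels were given as RPM, that is, read pairs scaled to the library's total on genes, counted over exons and introns. Depth was 9300549 to 28030180 read pairs, lowest in the 20 µM library, and a count of 3 read pairs was worth 0.107 to 0.323 RPM. Principal component 1 of 13024 autosomal genes, which left out the 10 genes and all genes of the lists described below, held 78.9% of the variance. It divided the libraries into DMSO replicates 1 and 2 with both 10 µM libraries (set 1) and DMSO replicate 3 with the 20 µM and 30 µM libraries (set 2). Each inhibitor library was therefore compared with the DMSO libraries of its own set as well as with all DMSO libraries. Dose above 10 µM and library set were not independent, since 20 µM and 30 µM were present only in set 2. Of the naive markers, *Esrrb* (545 to 794 RPM), *Zfp42* (528 to 650 RPM) and *Nanog* (71.4 to 95.7 RPM) were high in every library. Some others were lower in set 2 than in set 1. *Klf4* was at 56.0 to 70.5 RPM in set 1 and 23.4 to 38.0 RPM in set 2, and *Prdm14* at 28.8 to 37.5 and 12.7 to 20.1 RPM. *Tcl1* was at 15.1 to 22.9 and 5.27 to 7.68 RPM, and *Dppa3* at 4.69 to 6.65 and 1.40 to 2.38 RPM. *Klf2* and *Tfcp2l1* were also lower in set 2. The sets overlapped for *Pou5f1*, *Tbx3*, *Nr0b1* and *Klf5*, and *Klf5* was highest in DMSO replicate 3, at 218 RPM. *Sox2* was listed at 0 in all libraries. In bulk RNA, fewer cells that express a gene and less RNA per cell cannot be told apart.

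*Lefty1* and *Lefty2* lie close together on the plus strand of chromosome 1 (mm10, chr1:180935039-180938401 and chr1:180893119-180899102). Their coding sequences have 1104 bases each and were identical at 91.8% of positions in GENCODE transcripts of the same build. Reads that map to both genes were discarded. Of all 81-base windows of the spliced transcripts, the length of a single read, 9.68% of those of *Lefty1* and 6.23% of those of *Lefty2* were present in the other gene. Most of each gene could therefore be told from its paralog, and introns, which also contribute reads, were not compared.

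RNA from the *Lefty* genes was lower in every inhibitor library than in the DMSO libraries of its set. *Lefty1* was at 20.9, 18.1 and 8.15 RPM in DMSO replicates 1, 2 and 3, at 10.999 and 11.2 RPM at 10 µM, at 3.01 RPM at 20 µM and at 1.63 RPM at 30 µM. *Lefty2* was at 86.3, 77.7 and 49.1 RPM in DMSO, at 57.3 and 60.9 RPM at 10 µM, at 38.7 RPM at 20 µM and at 16.7 RPM at 30 µM. DMSO replicate 3 was the lowest of the controls for both genes, and it lay below the 10 µM libraries, so the 10 µM and DMSO groups overlapped when all controls were used.

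At 10 µM, *Lefty1* fell by 47.4% in replicate 1 and fell by 38.2% in replicate 2 relative to the DMSO library of the same number. *Lefty2* fell by 33.6% in replicate 1 and fell by 21.6% in replicate 2. Per the study's methods, libraries of the same number shared a batch of cells. With the replicate number as a block (4 libraries, limma), the *Lefty1* difference was -0.76 ± 0.143 (SE) on the log2(RPM + 1) scale, with an adjusted p of 1.83e-05. The *Lefty2* difference was -0.46 ± 0.0825 (SE), with an adjusted p of 4.30e-06. This fit leaves 1 residual degree of freedom per gene. Its limma SE and p-values rest on the spread pooled over all genes, with almost no weight on the gene's own spread. *Lefty1* and *Lefty2* also passed with edgeR on the recovered read pairs in the same design (adjusted p 6.79e-08 and 2.37e-05). Neither passed without the block. With all 3 DMSO libraries the differences were -0.37 ± 0.396 and -0.22 ± 0.255 (SE; limma adjusted p 0.814 for *Lefty1* and 0.816 for *Lefty2*), and in the same 4 libraries without the block they were as with it, -0.76 ± 0.169 and -0.46 ± 0.113 (SE), with a limma adjusted p of 0.810 for each.

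Within set 2 the reductions were larger at 30 µM. *Lefty1* had 175 read pairs in DMSO replicate 3, 28 at 20 µM and 38 at 30 µM, which corrected for depth was 2.71 times lower (95% exact interval 1.81 to 4.19) and 5.01 times lower (3.51 to 7.32). *Lefty2* had 1054, 360 and 391 read pairs, or 1.27 times lower (1.12 to 1.43) at 20 µM and 2.93 times lower (2.61 to 3.30) at 30 µM. Neither interval of *Lefty2* reached 1, but with 1 library at each dose they cover counting error only and not the spread between cultures. A log2(RPM + 1) ratio below -1 was seen for *Lefty1* at 20 µM, where 0.912% of the 13599 genes tested had one, and for both *Lefty* genes at 30 µM, where 0.529% had one. *Otx2* also had one at both doses, and 0 of the 8 members tested had a ratio above 1, which 1.32% of genes had at 20 µM and 0.581% at 30 µM.

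Over the dose range, with the library set as a term, the slope of *Lefty1* was -0.63 ± 0.0784 (SE) per 10 µM on the log2(RPM + 1) scale and passed the threshold (limma adjusted p 0.0287). Genes called lower made up 0.125% of those tested in that fit. *Lefty1* passed with edgeR too (adjusted p 0.0141), but not when a single DMSO library was left out (limma adjusted p 0.0667, 0.0539 and 0.953 without replicates 1, 2 and 3). *Lefty2* had a slope of -0.45 ± 0.0845 (SE) and an adjusted p of 0.0555. Without the set term the slopes were -0.89 ± 0.162 and -0.60 ± 0.115 (SE), with limma adjusted p of 0.450 and 0.489, and no gene of the table passed. Both genes kept a negative slope under every alternative run, and the plot of levels in every library shows the decline within each set.

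**Figure D1:**
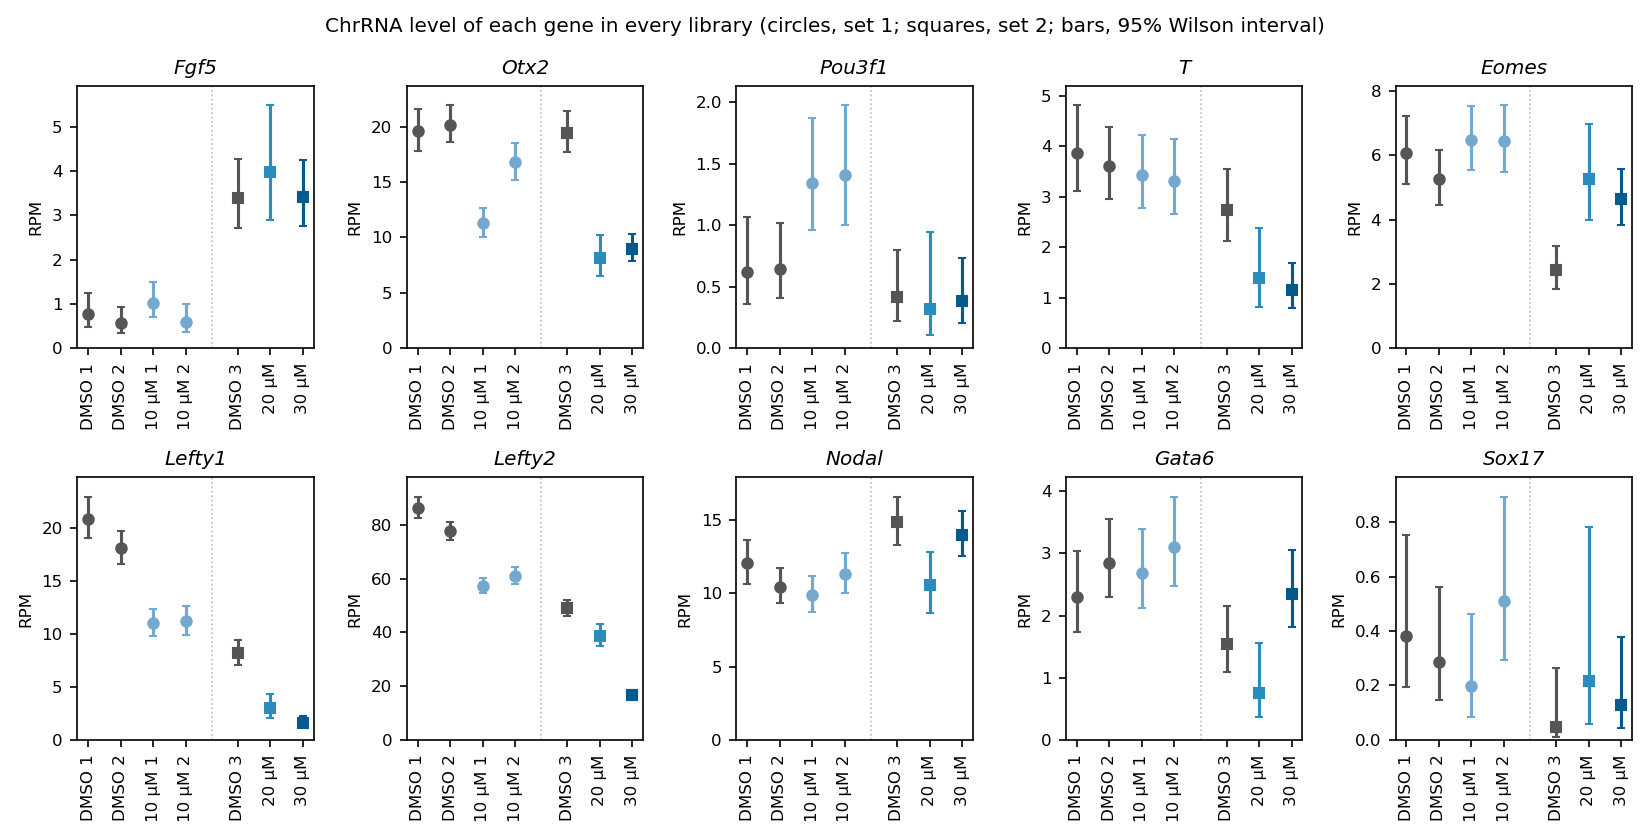
RPM of each of the 10 genes in the 7 libraries, with 95% Wilson intervals that cover counting error only; circles are set 1, squares are set 2, gray is DMSO and darker blue is a higher dose of STM2457. Within set 2 *Lefty1* drops from 8.15 RPM in DMSO replicate 3 to 1.63 RPM at 30 µM. *Nodal* stays between 9.895 and 14.9 RPM, and *Fgf5* follows the library set.

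The *Lefty* genes did not decline in proportion. There were 4.13 and 4.29 read pairs on *Lefty2* per read pair on *Lefty1* in DMSO replicates 1 and 2, and 5.21 and 5.44 at 10 µM. In set 2 the ratio was 6.02 in DMSO replicate 3, 12.9 (95% exact interval 8.75 to 19.6) at 20 µM and 10.3 (7.36 to 14.8) at 30 µM. The ratio was thus higher in each inhibitor library than in the DMSO libraries of its set, and higher in DMSO replicate 3 than in set 1. The ratio was computed after the levels had been seen and was not tested.

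**Figure D2:**
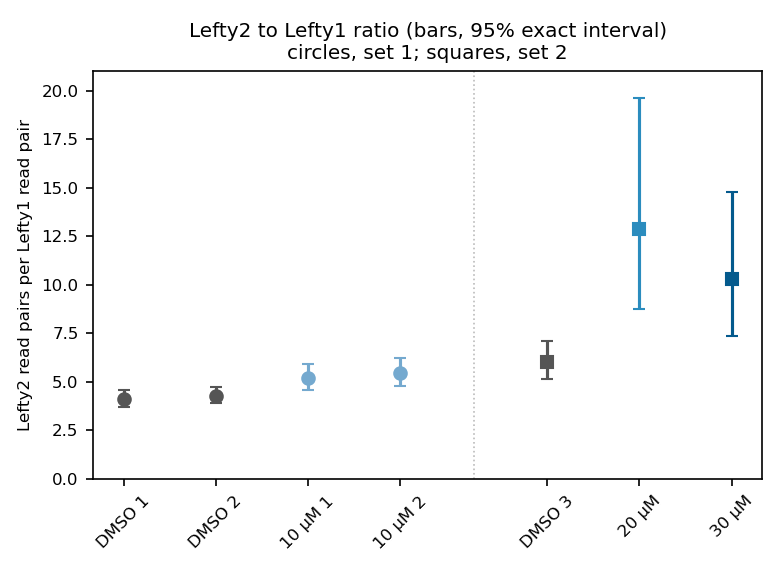
Read pairs on *Lefty2* per read pair on *Lefty1* in each library, with 95% exact intervals for counting error; circles are set 1 and squares are set 2. The ratio is 4.13 to 4.29 in the DMSO libraries of set 1 and 5.21 to 5.44 at 10 µM, and it is 6.02, 12.9 and 10.3 in DMSO replicate 3, at 20 µM and at 30 µM.

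*Nodal*, the ligand that the LEFTY proteins antagonize (plus strand, chr10:61417972-61425337), did not follow them in every library. Its levels were 12.05, 10.45 and 14.9 RPM in DMSO, 9.895 and 11.3 RPM at 10 µM, 10.54 RPM at 20 µM and 14.0 RPM at 30 µM. Control and inhibitor libraries overlapped within set 1, and in set 2 both inhibitor libraries were below DMSO replicate 3. With the block the difference at 10 µM was -0.079 ± 0.155 (SE), with a limma adjusted p of 0.829. Its dose slope was -0.060 ± 0.0842 (SE) with the set term, with an adjusted p of 0.919.

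The other genes of the pathway were taken from a list of 19, which held the co-receptor *Tdgf1*, the related ligands *Gdf1* and *Gdf3*, the convertases *Furin* and *Pcsk6*, the activin receptors, the SMADs, *Foxh1* and other regulators and targets. Of these, 15 passed the minimum of 1 RPM, and 0 of 15 were called in any of the 4 fits, against 7.5% of all genes with the block, 0.199% with the set term and 0 in the others, so that few or no calls were to be counted at the share of all genes. The list had a median difference of 0.01 with the block against 0.03 over all genes and a median slope of 0.01 with the set term against 0.01 over all genes. Among the most abundant members, *Smad2* was at 209 to 270 RPM, *Pcsk6* at 229 to 296 RPM and *Smad4* at 153 to 190 RPM. *Tdgf1* was at 166, 213 and 117 RPM in DMSO, 153 and 204 RPM at 10 µM, 97.7 RPM at 20 µM and 89.1 RPM at 30 µM. Its values were lower in set 2 than in set 1, and DMSO replicate 3 was the highest of set 2. *Cer1*, a further antagonist, was at 0 in all but DMSO replicate 3, and *Gdf1* was listed at 0 in all libraries.

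*Otx2*, a homeobox factor of the formative and primed epiblast (minus strand, chr14:48657677-48667644), was the only member whose 10 µM libraries both lay below all 3 DMSO libraries, a pattern found in 8.74% of genes. It was at 19.7, 20.2 and 19.5 RPM in DMSO, 11.3 and 16.8 RPM at 10 µM, 8.17 RPM at 20 µM and 8.99 RPM at 30 µM. The DMSO libraries were close to each other in both sets, with a mean of 19.8 ± 0.377 RPM (SD, n = 3), and all inhibitor libraries lay below them. *Otx2* fell by 42.6% and fell by 16.9% at 10 µM relative to DMSO replicates 1 and 2. With the block the difference was -0.50 ± 0.138 (SE), with a limma adjusted p of 0.00837 and an edgeR adjusted p of 0.00104. The log2(RPM + 1) ratios of the replicate 1 and replicate 2 pairs were -0.75 and -0.25. As above, the limma SE rests on the spread pooled over all genes and not on that between these pairs. Genes called lower with the block made up 3.38% of those tested by limma and 3.04% by edgeR. Without the block the difference was -0.49 ± 0.231 (SE), nearly the same size, with a limma adjusted p of 0.811, and in the same 4 libraries without the block the adjusted p was 0.891.

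Relative to DMSO replicate 3, *Otx2* was 2.38 times lower (95% exact interval 1.86 to 3.08) at 20 µM and 2.17 times lower (1.83 to 2.57) at 30 µM. The intervals overlap, and no further decline from 20 µM to 30 µM was detectable. The dose slope was -0.41 ± 0.0968 (SE) without the set term and -0.40 ± 0.0954 (SE) with it, with limma adjusted p of 0.508 and 0.116.

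*Fgf5* encodes an FGF ligand that marks the formative and primed epiblast (plus strand, chr5:98254184-98277033). Levels were 0.765, 0.571 and 3.40 RPM in DMSO, 1.025 and 0.5965 RPM at 10 µM, 3.98 RPM at 20 µM and 3.42 RPM at 30 µM. Here the libraries separated by set and not by treatment: DMSO replicate 3 was 5.09 times the mean of the other DMSO libraries and close to the 20 µM and 30 µM libraries. All 3 libraries of set 2 lay above all 4 of set 1, as they did for 18.7% of genes. The reverse, set 2 below set 1, held for *T*, *Lefty1* and *Lefty2* and for 39.8% of genes. Relative to DMSO replicate 3 the level was 1.17-fold (95% exact interval 0.766 to 1.76) at 20 µM and 1.01-fold (0.724 to 1.40) at 30 µM. The dose slope was 0.37 ± 0.204 (SE) without the set term and 0.032 ± 0.0873 (SE) with it, with limma adjusted p of 0.508 and 0.968. Within set 1 *Fgf5* had 14 to 26 read pairs and exceeded 1 RPM in 1 of 4 libraries.

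An upstream sequence is shown for *Otx2*, one of the genes lower in every inhibitor library than in the DMSO libraries of its set. Another is shown for *Fgf5*, which followed the library set. Each run is the 250 bases before a RefSeq start site (GRCm38.p6), and capitals mark motif matches, searched on both strands.
Otx2, chr14:48667645-48667894, minus strand: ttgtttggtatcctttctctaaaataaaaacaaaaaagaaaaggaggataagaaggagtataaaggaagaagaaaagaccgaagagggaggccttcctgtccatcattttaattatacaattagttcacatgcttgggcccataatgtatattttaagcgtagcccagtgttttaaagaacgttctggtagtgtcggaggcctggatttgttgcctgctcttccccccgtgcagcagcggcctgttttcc
Fgf5, chr5:98253934-98254183, plus strand: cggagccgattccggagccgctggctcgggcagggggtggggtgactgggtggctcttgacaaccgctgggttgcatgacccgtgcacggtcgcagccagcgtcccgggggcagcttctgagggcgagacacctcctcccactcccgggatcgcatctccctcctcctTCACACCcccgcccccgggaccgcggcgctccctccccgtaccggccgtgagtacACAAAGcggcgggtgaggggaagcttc
The *Otx2* run had 6 CpG dinucleotides, the median of the 32851 promoter windows of this length. The other RefSeq start sites of *Otx2* had more, at 8, 14 and 9. The run shown lies in an intron of a longer GENCODE transcript of *Otx2*. The letters searched were ATCCACA for FOXH1, CAGACA for SMAD proteins, TAATCC for OTX2, TCACACC for T-box factors, ACAAAG for SOX factors and AGATAA for the zinc-finger family of *Gata6*, and the *Otx2* run held 0 matches. Of the 3 other RefSeq start sites of *Otx2*, the third in the table had TAATCC and AGATAA matches that overlap, with first bases at -211 and -208, and the fourth had an AGATAA match at -133. The *Fgf5* run had 24 CpG dinucleotides, a T-box match at -82 and a SOX match at -27 from the start. T-box letters were present in 3.33% of all windows and SOX letters in 16.5%. RefSeq windows were matched for 5 of the 10 genes, and *Lefty1* and *Lefty2* were not among them. Of the matched genes, *T* and *Eomes* had no match to any of the letters searched, while *Nodal* had a SOX match at -242.

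*Pou3f1*, a POU factor of the formative epiblast (plus strand, chr4:124657646-124660655), was sparse, with 3 to 34 read pairs, and its mean of 0.734 RPM was below the minimum. Levels were 0.622, 0.642 and 0.419 RPM in DMSO, 1.34 and 1.41 RPM at 10 µM, 0.323 RPM at 20 µM and 0.385 RPM at 30 µM. The 10 µM libraries were the highest, at 2.16-fold (95% exact interval 1.11 to 4.45) and 2.19-fold (1.20 to 4.13) of DMSO replicates 1 and 2, whereas 20 µM and 30 µM were close to DMSO replicate 3. With no minimum and the block, the difference was 0.54 ± 0.136 (SE), with a limma adjusted p of 0.00395. That fit called 1114 of 19112 genes, 637 of them higher. It leaves 1 residual degree of freedom, so its SE and p-value rest on the spread pooled over all genes. Without the block the limma adjusted p was 0.854. The direction was opposite to that of *Otx2* in the same libraries.

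*T* (Brachyury, plus strand, chr17:8434423-8442496) was at 3.87, 3.60 and 2.75 RPM in DMSO, 3.43 and 3.32 RPM at 10 µM, 1.40 RPM at 20 µM and 1.16 RPM at 30 µM. At 10 µM the ratios to DMSO replicates 1 and 2 were 0.886 (95% exact interval 0.647 to 1.21) and 0.922 (0.677 to 1.25), within counting error. In set 2 it was 1.97 times lower (95% exact interval 1.07 to 3.91) at 20 µM, with 13 read pairs, and 2.38 times lower (1.48 to 3.90) at 30 µM. Its slope with the set term was -0.25 ± 0.0817 (SE), with a limma adjusted p of 0.281, and it was not called in any fit that used all 7 libraries.

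*Eomes* (plus strand, chr9:118478189-118486132), the other T-box gene, showed values in the opposite direction. Levels were 6.07, 5.24 and 2.42 RPM in DMSO, 6.47 and 6.43 RPM at 10 µM, 5.27 RPM at 20 µM and 4.62 RPM at 30 µM. Both 10 µM libraries lay above DMSO replicates 1 and 2, as in 20.8% of genes, and above all 3 DMSO libraries, as in 16.6%. The ratios to DMSO replicates 1 and 2 were 1.06 (95% exact interval 0.839 to 1.35) and 1.23 (0.971 to 1.55), within counting error. DMSO replicate 3 was the lowest of the 7 libraries, and the other 6 lay between 4.62 and 6.47 RPM. Relative to that library *Eomes* was 2.18-fold higher (95% exact interval 1.44 to 3.28) at 20 µM and 1.91-fold higher (1.36 to 2.71) at 30 µM, so these values rest on 52 read pairs of a single control. The slope with the set term was 0.25 ± 0.0886 (SE), with a limma adjusted p of 0.323, and without the set term it was 0.049 ± 0.140 (SE). A further transcript, *Gm33460*, overlaps *Eomes* on the other strand, and reads were counted by strand.

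**Figure D3:**
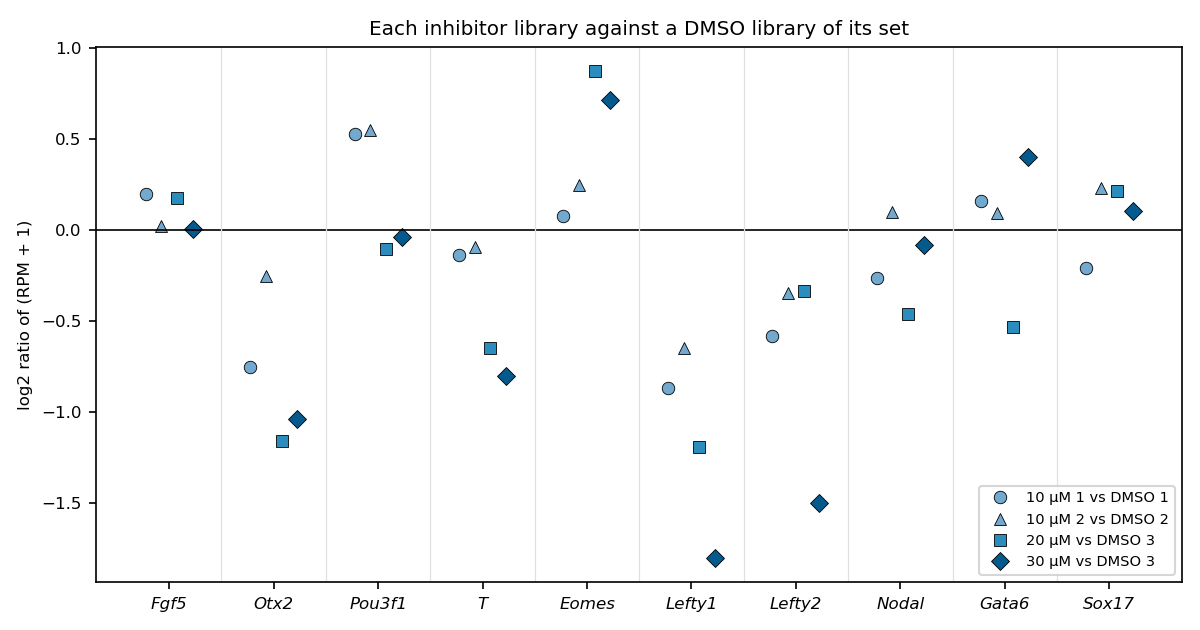
log2 ratio of (RPM + 1) of each inhibitor library to a DMSO library of its set, for the 10 genes; the line at 0 is no difference. All 4 points lie below 0 for *Otx2*, *T*, *Lefty1* and *Lefty2*, down to -1.80 for *Lefty1* at 30 µM, and all 4 lie above 0 for *Eomes* (up to 0.87) and, by no more than 0.20, for *Fgf5*.

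The endoderm regulators were low. *Gata6* (plus strand, chr18:11052510-11085635) was at 2.295, 2.85 and 1.54 RPM in DMSO, 2.68 and 3.11 RPM at 10 µM, 0.753 RPM at 20 µM and 2.35 RPM at 30 µM. The lowest value, at 20 µM, came from 7 read pairs in the shallowest library, with a ratio to DMSO replicate 3 of 0.490 (95% exact interval 0.183 to 1.13). Its difference at 10 µM with the block was 0.13 ± 0.171 (SE), with a limma adjusted p of 0.736. *Sox17* (minus strand, chr1:4490928-4497354) had 1 to 12 read pairs in each library, a mean of 0.252 RPM, and no difference was detectable at this depth.

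Of the 10 genes, 8 had a mean of at least 1 RPM and entered the fits, *Fgf5* only through set 2. All 4 inhibitor libraries were below the DMSO libraries of their set for 4 of these 8 (*Otx2*, *T*, *Lefty1* and *Lefty2*), against 8.02% of all genes, and above them for 1 (*Eomes*), against 9.91%. Both libraries of set 2 with inhibitor were below all DMSO libraries for the same 4 genes, against 21.7% of all genes, and above them for 1 (*Fgf5*), against 11.8%. In the fit with the block, 3 of 8 were called in either direction (7.5% of all genes), 3 of 8 lower (3.38%) and 0 of 8 higher (4.13%), and the median difference was -0.10 against 0.03 over all genes. In the dose fit with the set term, 1 of 8 was called in either direction (0.199% of all genes), 1 of 8 lower (0.125%) and 0 of 8 higher (0.0735%), and the median slope was -0.15 against 0.01. With edgeR 3 of 8 were called with the block (6.15% of all genes, 3.11% higher) and 1 of 8 with the set term (0.537%, of which 0.132% higher and 0.404% lower). Without the block and without the set term, 0 of 13599 genes were called by limma or edgeR. DESeq2 called 1 at 10 µM and 129 for dose, *Otx2*, *Lefty1* and *Lefty2* among the latter (adjusted p 0.0218, 2.49e-06 and 0.00121), and at an unadjusted p under 0.05 limma had 212 and 1174 genes.

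**Figure D4:**
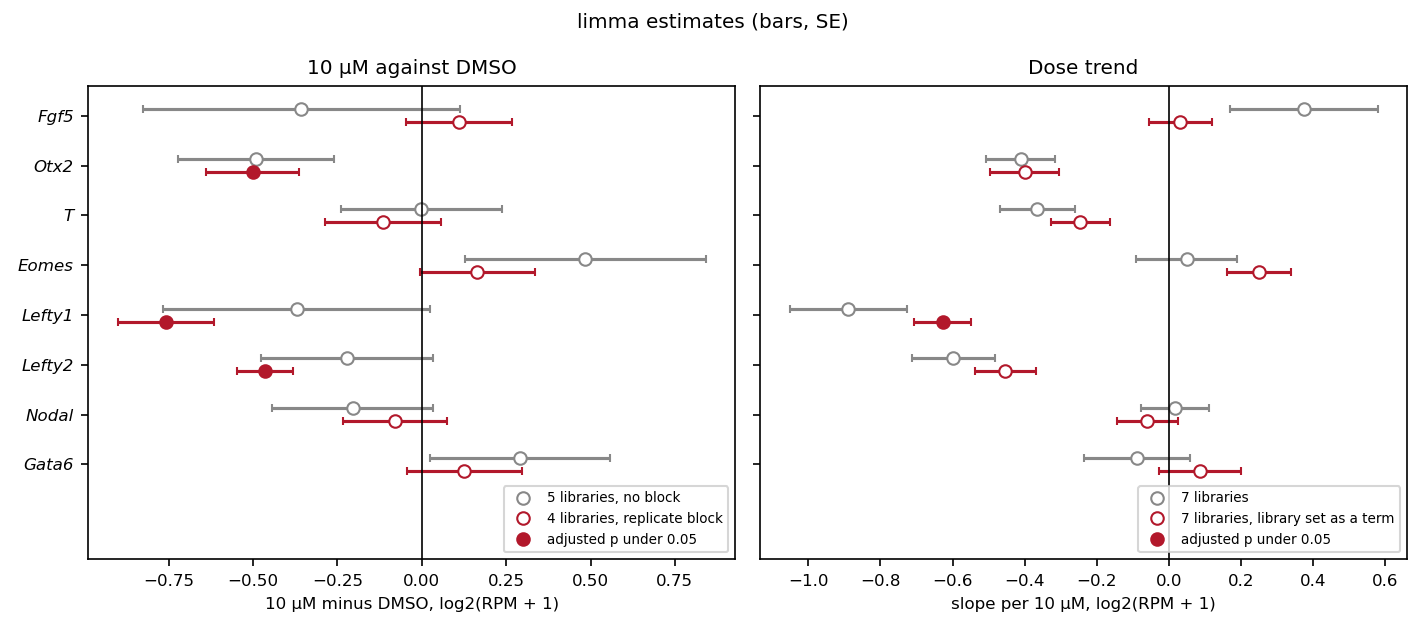
limma estimates with SE on the log2(RPM + 1) scale for the 8 genes that passed the minimum of 1 RPM; left, 10 µM against DMSO without (gray) and with (red) the replicate block; right, slope per 10 µM without (gray) and with (red) the library set as a term. Filled points have an adjusted p under 0.05: *Otx2*, *Lefty1* and *Lefty2* with the block, and *Lefty1* (-0.63) for dose with the set term.

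Levels in DMSO per kilobase of gene span placed *Lefty2* first (11.9 ± 3.26 RPM per kb, SD, n = 3), followed by *Lefty1* (4.67 ± 1.99), *Otx2* (1.98 ± 0.0378) and *Nodal* (1.69 ± 0.303). *Otx2* and *Nodal* had overlapping ranges. *Eomes* (0.576 ± 0.241) and *T* (0.422 ± 0.0727) came next and overlapped, and *Pou3f1* (0.186 ± 0.0409), *Fgf5* (0.0691 ± 0.0692), *Gata6* (0.0673 ± 0.01996) and *Sox17* (0.0371 ± 0.0269) were lowest, with neighbors that overlapped. At 30 µM *Lefty1* was at 0.483 RPM per kb, below *Otx2* (0.901), *Nodal* (1.90) and *Eomes* (0.582).

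Other genes of the formative state gave calls in both directions. Of 15 listed genes, 14 passed the minimum, and 3 of 14 were called with the block, against 7.5% of all genes: *Foxd3* (0.82 ± 0.172, SE, limma adjusted p 0.000149) and *Sox4* (0.67 ± 0.168, adjusted p 0.00286) were higher and *Lef1* (-0.52 ± 0.0958, adjusted p 1.09e-05) was lower. *Lef1*, an effector of WNT signaling, was also called lower for dose with the set term (slope -0.43 ± 0.0731, SE, limma adjusted p 0.0456). That call was lost with no minimum (limma adjusted p 0.1505), with a pseudocount of 0.1 (0.0529) and when any 1 DMSO or 10 µM library was left out (limma adjusted p 0.0711 to 0.953). It was at 52.6, 52.9 and 149 RPM in DMSO, 38.7 and 34.6 RPM at 10 µM, 61.8 RPM at 20 µM and 67.8 RPM at 30 µM, so that DMSO replicate 3 was the highest of all. The median difference of the list with the block was 0.12, against 0.03 over all genes. *Etv5* (210 to 316 RPM), *Dnmt3b* (99.9 to 193 RPM) and *Dnmt3a* (34.6 to 61.5 RPM), abundant members of the list, were not called in any of the 4 fits.

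Among 10 FGF ligands, receptors and adaptors, 9 passed the minimum and *Fgf10* alone was called, 1 of 9 both with the block and for dose with the set term, against 7.5% and 0.199% of all genes. It was at 112, 127 and 61.9 RPM in DMSO, 95.8 and 82.6 RPM at 10 µM, 32.9 RPM at 20 µM and 26.1 RPM at 30 µM. The difference with the block was -0.42 ± 0.0747 (SE, limma adjusted p 4.20e-06) and the dose slope with the set term was -0.41 ± 0.0559 (SE, limma adjusted p 0.0287). The dose call was lost with no minimum (limma adjusted p 0.1505), without DMSO replicates 1, 2 or 3 (0.0667, 0.0686 and 0.953) and without 10 µM replicate 2 (0.0522). *Fgf4*, the main FGF ligand of mES cells, was at 92.6, 100.4 and 36.0 RPM in DMSO, 98.95 and 112 RPM at 10 µM, 32.0 RPM at 20 µM and 34.7 RPM at 30 µM, which followed the library set.

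Of 15 primitive streak and mesendoderm genes, only *Tbx3*, which is also expressed in naive mES cells, had a mean of at least 1 RPM. The streak genes *Mixl1*, *Gsc* and *Foxa2* were at most 0.342, 0.469 and 0.197 RPM, and *Mesp1*, *Lhx1* and *Msgn1* were at most 0.0852 RPM, which is below the level of 3 read pairs. Of 15 primitive endoderm genes, 11 passed, and *Col4a1*, a basement membrane collagen, was called higher with the block (0.36 ± 0.0881, SE, limma adjusted p 0.00196). This is 1 of 11, near the 7.5% called over all genes, and 0 of 11 were called for dose, where *Col4a1* and *Col4a2* had slopes of 0.28 ± 0.0552 and 0.30 ± 0.0571 (SE) with limma adjusted p of 0.0651 and 0.0555 with the set term. *Sparc*, a matrix protein, was at 25.6, 17.3 and 42.1 RPM in DMSO, 25.6 and 23.3 RPM at 10 µM, 79.4 RPM at 20 µM and 67.8 RPM at 30 µM, and *Dab2*, an endocytic adaptor, was at 23.9 to 39.5 RPM in DMSO, 26.5 and 32.3 RPM at 10 µM, 59.996 RPM at 20 µM and 64.7 RPM at 30 µM. *Pdgfra*, a growth factor receptor, was at 1.46 to 1.96 RPM in DMSO, 4.62 RPM at 20 µM and 3.47 RPM at 30 µM. For these 3 genes the 20 µM and 30 µM libraries were the highest of the 7, with limma adjusted p for dose with the set term of 0.308, 0.211 and 0.577. *Gata4* was at 4.62 to 7.40 RPM and *Lama1*, a basement membrane laminin, was at 363 to 466 RPM in DMSO and at 237 and 247 RPM at 20 µM and 30 µM. Of 14 naive markers, 13 passed and 1 of 13, *Klf5*, was called lower with the block, near the 7.5% of all genes (-0.28 ± 0.0687, SE, limma adjusted p 0.00236), with 0 of 13 called for dose.

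**Figure D5:**
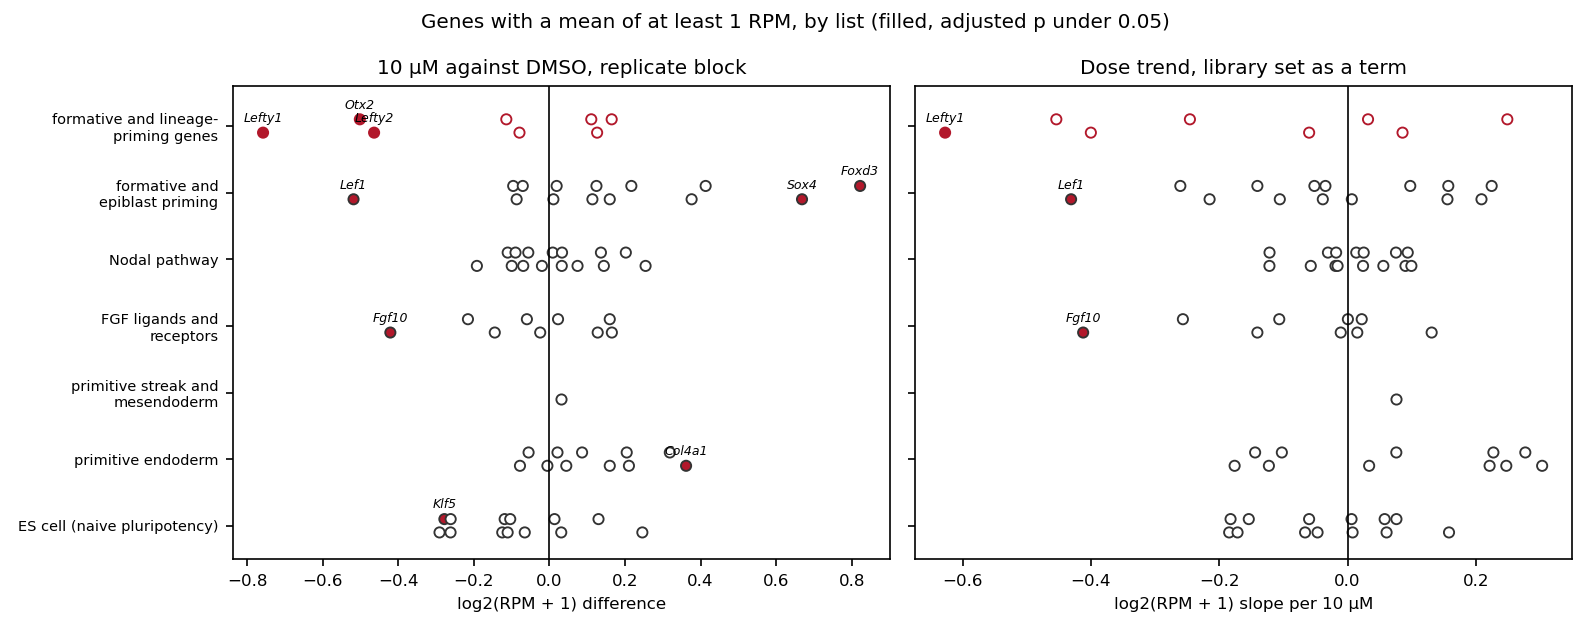
limma estimates on the log2(RPM + 1) scale for the genes of each list that passed the minimum of 1 RPM; left, 10 µM minus DMSO with the replicate block; right, slope per 10 µM with the library set as a term. Filled points have an adjusted p under 0.05 and are named; *Lefty1* (-0.76 and -0.63) has the lowest value in both panels, and the 15 Nodal pathway genes lie around 0.

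Markers of other cell types were summed in the same libraries. Of 18 fibroblast markers, 5 passed the minimum, and the summed level was 27.9 to 30.7 RPM in DMSO, 28.9 to 31.4 RPM at 10 µM, 34.9 RPM at 20 µM and 32.5 RPM at 30 µM, of which *Fbn1* made up 14.7 to 22.5 RPM. The defining collagens *Col1a1* and *Col3a1* were at most 0.860 and 0.430 RPM. Other fibroblast markers differed with the library set, in both directions. *Col5a2* was at 1.49 to 2.53 RPM in set 1 and 6.38 to 7.53 RPM in set 2. *Prrx1* was at 0.0788 to 0.214 and 0.968 to 1.49 RPM. In contrast, *Pdgfrb* was lower in every library of set 2 than in set 1, with 2.01, 2.07 and 0.792 RPM in DMSO replicates 1, 2 and 3. *Fbn1* was lowest in DMSO replicate 3, at 14.7 RPM. *Col6a3* was at 0.606 to 1.07 RPM in set 1, 0.931 RPM in DMSO replicate 3 and 1.83 and 1.88 RPM at 20 µM and 30 µM. Of 8 neural markers, 3 passed, with sums of 5.10 to 11.9 RPM in DMSO, 6.82 to 6.94 RPM at 10 µM, 12.6 RPM at 20 µM and 10.4 RPM at 30 µM, and *Sox1* and *Neurog2* were listed at 0 in all libraries. The neural sum in DMSO replicate 3 (11.9 RPM) was close to that in the other libraries of set 2, as was the level of *Fgf5*. Of the 3 neural markers that passed, only *Pax6* was higher in every library of set 2 than in set 1. It was at 4.33, 2.04 and 3.04 RPM in DMSO replicate 3, at 20 µM and at 30 µM. *Tubb3* was at 4.42 RPM in DMSO replicate 3, within its range in set 1, and at 7.85 and 6.25 RPM at 20 µM and 30 µM. *Neurod1* was at 3.12, 2.58 and 1.11 RPM in set 2, the last within its range in set 1. Of 8 trophoblast markers, which include *Eomes*, 4 passed, with sums of 65.1 to 72.2 RPM in DMSO, 62.4 to 69.5 RPM at 10 µM, 69.0 RPM at 20 µM and 102 RPM at 30 µM. *Tead4*, which mES cells also express, made up 51.9 to 90.4 RPM, and *Cdx2* was at 0 in all but DMSO replicate 3. The part of other cell types in the differences was not tested.

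Genes with the most similar profile were ranked by Pearson's r of log2(RPM + 1) over the 7 libraries, as a description, since the libraries form the sets above. *Lefty1* was most like *Zfp819* (r = 0.990, and 0.994 after each set was given its own mean), *Trim2* (0.990 and 0.966) and *Fgf10* (0.986 and 0.957). *Otx2* was most like *Gpa33* (0.982 and 0.985), *Kdm5c* (0.977 and 0.969) and *Sox5* (0.974 and 0.984), and *Lefty2* was most like *Jrkl* (0.985 and 0.965), *Trh* (0.971 and 0.927) and *Dpysl3* (0.968 and 0.958). Only 1 of the 24 genes named this way for the 8 members was among the top 3 when each set had its own mean. Between members, *Lefty1* was at r = 0.980 with *T* and 0.956 with *Lefty2* (0.931 and 0.897 with set means removed), whereas *Lefty1* and *Nodal* were at -0.35 and 0.39.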

How the data were processed

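ChrRNA-seq data from C7H8 XX mES cells in 7 libraries were used. The authors discarded reads that bowtie2 mapped to rRNA, mapped the others with STAR to mm10 with strain SNPs masked, used featureCounts to count uniquely mapped pairs per gene span by strand, and deposited RPM values scaled with edgeR. From these, whole read pairs were recovered for 100% of values above 0 (tolerance 0.1). Groups follow the labels. The deposited allelic ratios cover X-linked genes only and were not used.

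The 13599 of 22556 genes whose mean reached 1 RPM were tested by limma 3.58.1 (lmFit, eBayes with trend) on log2(RPM + 1), on which changes of low genes appear smaller than they are. Calls required a Benjamini-Hochberg adjusted p under 0.05 over all 13599. The fits were 10 µM against DMSO, and a slope on dose over 7 libraries. Libraries DMSO 1 and 2 and 10 µM 1 and 2 were paired by number, since per the study's methods the wells of a replicate shared a batch of cells, and their deviations from group means correlated at r = 0.621 over 13599 genes. Library sets were taken from principal component 1. Single libraries at 20 µM and 30 µM were compared with DMSO replicate 3 without a test. Wilson and exact 95% intervals cover counting error only.

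Alternatives were edgeR 4.0.16 and DESeq2 1.42.0 (R 4.3.3) on recovered reads, TMM factors, a pseudocount of 0.1, a minimum of 5 RPM or none, and leaving out libraries. Each fit was also run on counts simulated for 13599 genes. Of these, 200 were changed by 1 on the log2 scale at the highest dose in that fit. In these counts limma recovered 140 for the dose trend, 102 with the set term, 175 at 10 µM and 160 with the block. The recoveries hold for the simulated spread only and do not give the power in the data, where libraries also differed by set. In the data, the limma fits without the block or the set term called 0 genes. Named genes are all members, called genes of each list or its most abundant ones, the 3 most similar genes per member and sequence matches; *Tdgf1*, *Cer1*, *Fgf4*, *Etv5*, *Dnmt3a*, *Dnmt3b*, *Gata4*, *Lama1*, *Sparc*, *Dab2*, *Pdgfra*, *Col4a2*, other naive and fibroblast markers and the streak genes were named after their values were seen. The neural markers were also named after their values were seen. Proteins were not compared. Members, lists and library sets were chosen with earlier results of these data known. Python 3.11.15, pandas 2.3.3 and scipy 1.17.1 were used otherwise. Some items are not reported here.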

Additional observations from a re-analysis of the deposited data

How the results depend on the processing

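Of 338 values of single members under alternative settings, 305 kept their direction and side of the threshold, 15 newly passed it, 4 no longer passed it and 14 changed sign. Of 48 values in single libraries, 41 stayed within the exact interval of the ratio, which covers counting error only, and 7 fell outside it. All 7 did so when the mean of all DMSO libraries replaced DMSO replicate 3. The cause was not tested for any of these.

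At 10 µM the count of genes called was 0 in 5 libraries, 1 without DMSO replicate 3 and 1020 with the replicate block in those 4 libraries. DESeq2 gave 1, and leaving out single replicates gave 0 to 1. For the dose trend the count rose from 0 to 129 with DESeq2 and to 27 with the library set as a term, and leaving out replicates gave 0 to 2485, the highest without DMSO replicate 3, where *Fgf5* (slope 0.57, higher), *Otx2*, *T*, *Lefty1* and *Lefty2* passed. With the set term the count was 73 with edgeR (18 higher and 55 lower, against 10 and 17 with limma), 68 with TMM factors, 15 with a pseudocount of 0.1, 0 with no minimum (where *Lefty1* had a limma adjusted p of 0.1505), 156 without the 20 µM library, 426 without the 30 µM library, and 0 to 13 when single replicates were left out. *Otx2* passed without the 30 µM library, and *Lefty2* passed without the 20 µM library and with TMM factors. Past a log2 ratio of 1 in either direction there were 304 genes at 20 µM and 151 at 30 µM, against 754 and 425 with a pseudocount of 0.1 and 1464 (242 higher) and 944 (247 higher) against the mean of all DMSO libraries. For 5 gene lists the sum in the 30 µM library exceeded that in DMSO replicate 3, and for 3 the median did. Of the 24 genes most similar to members, 1 was kept when each set had its own mean.

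Signs changed for values that did not pass. The 10 µM difference of *Fgf5* became 0.11 with the replicate block, and it was between -0.63 and 0.11 when single replicates were left out. That of *T* became 0.0012 with a pseudocount of 0.1 and ran from -0.11 to 0.075 when single replicates were left out. The dose slope of *Eomes* ran from -0.083 to 0.096 when single replicates were left out, the lowest without DMSO replicate 3. That of *Nodal* ran from -0.0074 to 0.073, and became -0.12 without the 30 µM library, -0.060 with the set term and, with the set term, 0.073 without DMSO replicate 3. That of *Gata6* became 0.038 without the 20 µM library and 0.086 with the set term, and with the set term -0.14 without the 30 µM library. The block changed no call of a member other than those of *Lefty1*, *Lefty2*, *Otx2* and, with no minimum, *Pou3f1*. No block could be made without a replicate, which would leave no residual degrees of freedom. Members with few read pairs (*Sox17*, *Pou3f1*, *Gata6* at 20 µM) could show only large differences.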
